A study of Homo sapiens with 6 samples.

Results

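The genes described here are 26 members of the cholesterol synthesis pathway and of its control by the sterol regulatory element-binding proteins (SREBPs), taken by gene symbol from a deposited table of 20348 genes. RNA-seq was made from MV4-11, an established human acute myeloid leukemia cell line. The 3 Control samples are described by the authors as a blank control. The other 3 received WNK463, a compound that blocks the WNK family of kinases, at 1 μM for 48 h. Both groups are the same line and differ by the labels in treatment alone. The comparison asks which transcripts differ after WNK inhibition, in 1 cell line at 1 dose and 1 time. The sources used here do not state whether the 3 samples of a group were separate cultures. The p-values thus set a difference against the spread between these samples, which may be technical. All 26 members passed the filter on low counts, as did 11973 genes in all.

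Cells build cholesterol from acetyl-CoA through the mevalonate pathway. This arm ends in farnesyl diphosphate, which is either used for lipid-anchored proteins and other isoprenoids or joined to squalene, closed to lanosterol and trimmed to cholesterol. When membrane sterol is low, SCAP carries the SREBP precursors from the endoplasmic reticulum to the Golgi, where they are cut to transcription factors that switch on the synthesis enzymes. When sterol is high, the INSIG proteins hold SCAP back. Dividing leukemia cells need sterol for new membrane.

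Total counts per sample lay between 14915745 and 17411780. All 8 markers of a myeloid leukemia line were present in each sample at 50.8 counts per 1000000 counts (CPM) or more, with summed levels of 1154 to 1203 CPM in Control and 1241 to 1268 CPM with WNK463. The markers did not move as one within this sum. *CSF1R*, a receptor of monocytic cells, was at 195% of Control (adjusted p = 9.8e-11), *HOXA9* at 165% and *MEIS1* at 126%, against 77.0% for *CD33* and 86.8% for *FLT3*. Their part in the pathway's changes was not tested. Of 9 markers of other cell types, 8 stayed below 1 CPM and 5 of these had no count. The exception was *PECAM1*, an adhesion receptor that myeloid cells also carry, at 91.4 to 105 CPM in Control and 163 to 176 CPM with WNK463. In bulk RNA, fewer cells in a state and less RNA per cell cannot be told apart.

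After WNK463, 21 of the 26 members fell, 2 rose and 3 did not pass the test (adjusted p below 0.05, edgeR's quasi-likelihood test, adjusted over all genes tested). Over all genes tested, 35.2% fell and 35.6% rose by this rule. The falls ran through the mevalonate arm, the steps to lanosterol, most of the steps to cholesterol and the SREBP genes themselves, while *GGPS1* on the branch to geranylgeranyl lipids and the sterol sensor *INSIG2* rose. The median log2 fold change was -0.61 over the members and 0.02 over all genes tested. Most changes were below 2-fold. At a log2 fold change of -1 or lower, 5 members fell, *DHCR7*, *FDPS*, *HSD17B7*, *EBP* and *LSS*, against 5.55% of all genes. This count was 3 with total counts and 2 with limma on TPM. None of the 26 rose by 2-fold or more, by edgeR or under any alternative with DESeq2 or limma, against 9.59% of all genes. In CPM, the 3 WNK463 values lay below the 3 Control values in 22 members and above them in 2, against 36.4% and 37.1% of all genes. The 22 include *SCAP*, whose TPM values were all higher with WNK463, and *MSMO1* and *STARD4*, whose groups overlapped in TPM. Scaling by total counts in place of edgeR's TMM factors raised the median of all genes by 0.15, and then 20 members fell and 3 rose, against 26.1% and 46.2% of all genes.

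**Figure D1:**
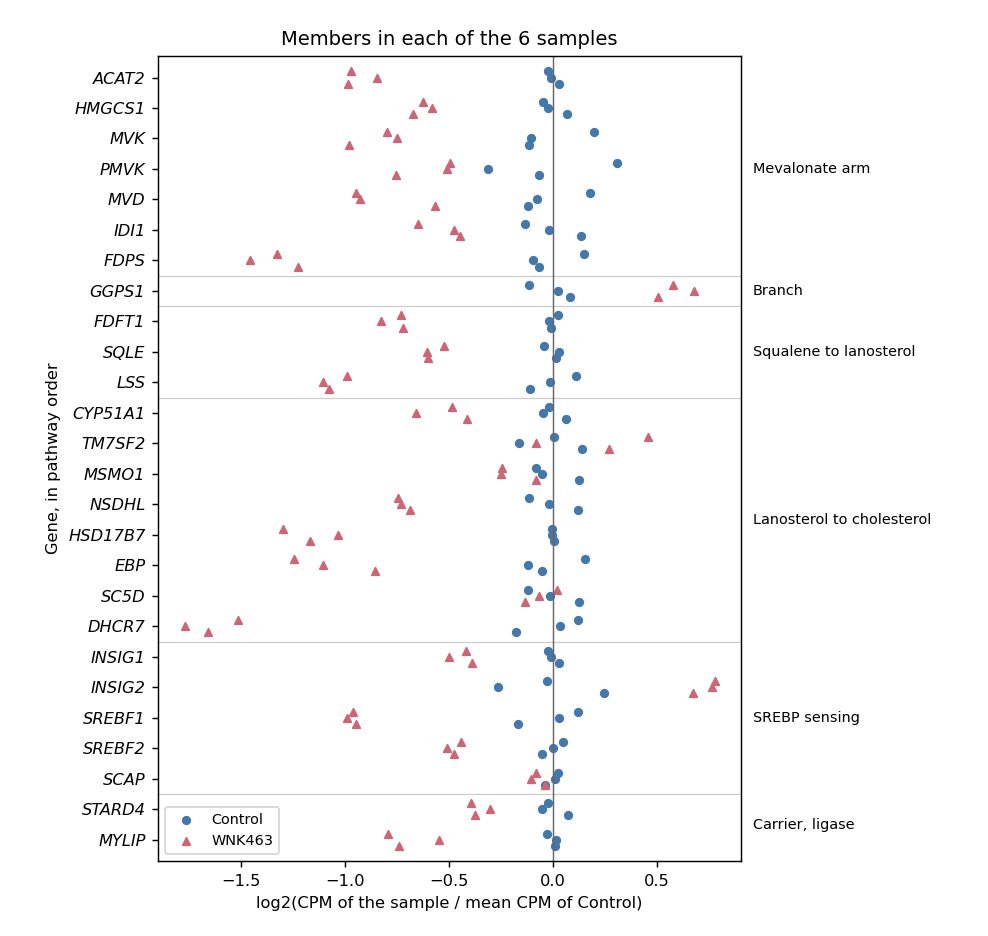
The CPM of each member in each sample is plotted on the x axis as the log2 ratio to the mean of the 3 Control samples, with genes in pathway order on the y axis. Circles are Control samples and triangles are WNK463 samples. The triangles lie left of all circles in 22 members and right of them in *GGPS1* and *INSIG2*.

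Of the 26 members, 23 had an entry in the RefSeq promoter table (GRCh38.p14), which gives 250 bases before to 50 bases after each start. The CCAAT box, which binds NF-Y, the usual partner of SREBPs, was searched as CCAAT on both strands. It was present in 18 of these 23 genes, against 43.3% of the tested genes in the table. By window, since a gene can have several, it was in 20 of 31, against 34.8% of the windows of tested genes and 34.6% of all windows. The GC box, a site for Sp1 and searched as GGGCGG, was present in 22 of 23 genes, against 76.7% of the tested genes, and in 28 of 31 windows, against 65.7% of the windows of tested genes and 45.0% of all windows. The E-box, searched as CACGTG, was present in 4 of 23 genes against 12.8% of the tested genes, and in 5 of 31 windows against 9.46% of those of tested genes and 7.26% of all. A strict core of the sterol regulatory element, searched as TCACNCCA on both strands with N for any base, was found in 3 genes, *MVK*, *SREBF2* and *MSMO1*, against 4.65% of the tested genes, and in 3 of 31 windows against 3.43% of those of tested genes and 3.95% of all. These matches describe letters and not binding.

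The 3 stretches that hold the sterol core are shown with the core in capitals. They lie at chr12:109573588-109573617, chr22:41832961-41832990 and chr4:165327502-165327531, all on the plus strand, with the core starting at positions -195, -133 and -156 from the start site. The *MVK* and *SREBF2* stretches lie inside annotated exons, as do all 250 bases before these start sites.
MVK: gttcgcagttcTCACCCCAgggcgggacac
SREBF2: atgacgcgccaTCACCCCAcgcaccgcttc
MSMO1: tctcactatccTCACTCCAtccgcggagcc
The 3 genes fell with TMM scaling, *MSMO1* by the least of all members that passed, and its fall was not kept with total counts.

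The upstream stretches of the 3 genes with the lowest fold changes are shown beside that of *INSIG2*, which rose, with each complete CCAAT box on either strand in capitals. Bases inside annotated exons are left out of these upstream stretches. The *DHCR7* stretch is chr11:71448436-71448643 on the minus strand, and the others are on the plus strand, at chr1:155308616-155308747 for *FDPS*, chr1:162790452-162790701 for *HSD17B7* and chr2:118088221-118088451 for *INSIG2*.
DHCR7: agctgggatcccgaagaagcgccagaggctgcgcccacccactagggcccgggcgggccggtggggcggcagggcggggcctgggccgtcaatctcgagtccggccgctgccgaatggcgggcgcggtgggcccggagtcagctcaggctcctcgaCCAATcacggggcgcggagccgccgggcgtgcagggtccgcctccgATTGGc
FDPS: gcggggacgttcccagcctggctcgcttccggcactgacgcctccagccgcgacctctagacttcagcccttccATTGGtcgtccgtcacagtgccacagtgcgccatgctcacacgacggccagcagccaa
HSD17B7: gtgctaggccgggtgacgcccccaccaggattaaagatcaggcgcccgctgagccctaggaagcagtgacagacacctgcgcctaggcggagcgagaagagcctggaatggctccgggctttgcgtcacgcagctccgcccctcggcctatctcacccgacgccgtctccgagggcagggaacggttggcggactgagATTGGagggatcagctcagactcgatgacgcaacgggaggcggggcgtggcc
INSIG2: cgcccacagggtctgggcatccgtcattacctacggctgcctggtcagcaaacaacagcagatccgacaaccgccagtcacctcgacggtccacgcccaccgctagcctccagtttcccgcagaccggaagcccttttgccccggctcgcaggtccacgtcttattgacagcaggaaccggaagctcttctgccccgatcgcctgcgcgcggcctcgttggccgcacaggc
The *DHCR7*, *FDPS* and *HSD17B7* stretches each hold a CCAAT box, and both *INSIG2* windows hold none. *DHCR7* has another window in the table, for the start site at position 71449043, and it holds none either. *INSIG2* was not alone in this, since *CYP51A1*, *PMVK* and *SREBF1* fell without a CCAAT box in the window and *GGPS1* rose with one.

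All 7 genes of the mevalonate arm fell, with log2 fold changes from -1.34 to -0.52 and a median of -0.81. The largest change was in *FDPS* (ENSG00000160752, chr1:155308748-155320666 in GRCh38), which makes farnesyl diphosphate and is the target of the bisphosphonate drugs. It had 204, 172 and 176 CPM in Control and 73.3, 67.0 and 78.5 CPM with WNK463. The groups did not overlap, at a log2 fold change of -1.34 (standard error 0.07, adjusted p = 3.3e-12). The genome holds 8 named *FDPS* pseudogenes, none of them in the table, and the part of reads shared with them was not tested. *ACAT2*, which joins acetyl-CoA units at the entry of the pathway, had 103, 104 and 106 CPM in Control and 53.2, 58.0 and 52.7 CPM with WNK463. Its level thus fell to 52.4% of Control (log2 fold change -0.93, standard error 0.06).

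*HMGCS1*, which makes the HMG-CoA from which mevalonate is formed, had 136, 138 and 147 CPM in Control and 90.9, 93.5 and 87.8 CPM with WNK463. The fall to 64.8% of Control was larger than the spread in either group (log2 fold change -0.63, standard error 0.05, adjusted p = 2.9e-10). The next enzymes, the mevalonate kinase *MVK*, the phosphomevalonate kinase *PMVK* and the decarboxylase *MVD*, had log2 fold changes of -0.84, -0.58 and -0.81. *MVK* had 30.7, 24.9 and 24.7 CPM in Control and 15.4, 15.9 and 13.5 CPM with WNK463. *MVD* had 45.8, 38.4 and 37.3 CPM in Control and 21.0, 21.3 and 27.3 CPM with WNK463. Control replicate 1 was the highest sample for all 3 of these genes, and no WNK463 sample reached the lowest Control sample. *PMVK* was the least certain of these, with 22.2, 14.4 and 17.1 CPM in Control against 12.7, 12.6 and 10.6 CPM with WNK463. It failed the test in 1 of 14 alternatives, limma on log2(TPM + 1) without a filter (adjusted p = 0.091, TPM being transcripts per 1000000). *IDI1*, the isomerase that makes the reactive isoprene unit, had 68.3, 74.1 and 82.5 CPM in Control and 47.8, 53.8 and 55.1 CPM with WNK463, the smallest fall of the arm (log2 fold change -0.52, standard error 0.07).

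*GGPS1* (ENSG00000152904, chr1:235327350-235344532), which extends farnesyl to geranylgeranyl diphosphate, a lipid anchor of membrane proteins, went the other way. It had 23.7, 26.2 and 27.3 CPM in Control and 38.5, 41.2 and 36.5 CPM with WNK463. All WNK463 samples lay above all Control samples, at 151% of Control (log2 fold change 0.59, standard error 0.08, adjusted p = 6.3e-07). Its log2 fold change stayed between 0.53 and 0.79 under all 14 alternatives.

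The 3 enzymes from farnesyl diphosphate to lanosterol all fell. *FDFT1* (squalene synthase), which commits farnesyl diphosphate to sterols, had 389, 378 and 380 CPM in Control and 230, 215 and 232 CPM with WNK463. *SQLE* (squalene epoxidase), an oxygen-dependent and rate-controlling step, had 320, 336 and 333 CPM in Control and 229, 216 and 217 CPM with WNK463. These are large counts, at least 3402 in each sample for either gene, and the groups were well apart. The log2 fold changes were -0.76 (standard error 0.05) and -0.58 (standard error 0.05). *LSS* (lanosterol synthase), which closes the ring system, fell further, from 90.5, 83.1 and 77.6 CPM to 42.2, 38.9 and 39.7 CPM (log2 fold change -1.06, standard error 0.07, adjusted p = 1.3e-12).

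Of the 8 enzymes from lanosterol to cholesterol, 6 fell and 2 did not pass the test. *DHCR7* (ENSG00000172893, chr11:71428193-71452868), which reduces 7-dehydrocholesterol to cholesterol and whose loss causes Smith-Lemli-Opitz syndrome, had the lowest fold change of all 26 members. It had 40.5, 38.1 and 32.9 CPM in Control and 12.98, 10.9 and 11.7 CPM with WNK463. The highest WNK463 sample was far below the lowest Control sample, and the level fell to 31.9% of Control (log2 fold change -1.65, standard error 0.10, adjusted p = 4.8e-13). Over the 14 alternatives its log2 fold change lay between -1.74 and -1.49.

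*HSD17B7*, the 3-ketosteroid reductase of the C4 demethylation complex, was among the least abundant members. It had 13.2, 13.2 and 13.3 CPM in Control and 5.37, 6.45 and 5.87 CPM with WNK463 (log2 fold change -1.16, standard error 0.13, adjusted p = 1.5e-08). It has 2 named pseudogenes, which are not in the table. *EBP*, the sterol isomerase, had 37.0, 30.7 and 32.1 CPM in Control and 14.01, 15.5 and 18.4 CPM with WNK463, a log2 fold change of -1.06. With total-count scaling *LSS* and *EBP* had log2 fold changes of -0.90 and -0.91, so neither fell by 2-fold there. With limma on log2(TPM + 1) the log2 fold changes of *HSD17B7*, *LSS* and *EBP* were -0.79, -0.88 and -0.84.

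The other enzymes of this stretch moved less. *NSDHL*, which works with *HSD17B7* in the same complex, had 49.2, 52.5 and 57.9 CPM in Control and 31.7, 32.0 and 33.0 CPM with WNK463, at 60.6% of Control (log2 fold change -0.72, standard error 0.07). *CYP51A1*, the lanosterol demethylase, had 62.5, 61.4 and 66.1 CPM in Control and 45.2, 40.1 and 47.6 CPM with WNK463, at 69.9% of Control (log2 fold change -0.52, standard error 0.07). Neither gene had overlapping groups. *CYP51A1* has 3 named pseudogenes outside the table, and a gene model on its own strand that shares 79.4% of its exon bases was listed at 0 in all samples. *MSMO1*, the sterol C4 methyl oxidase that opens C4 demethylation, had 58.3, 59.3 and 67.1 CPM in Control and 51.9, 51.8 and 58.2 CPM with WNK463. Its small fall with TMM (log2 fold change -0.19, adjusted p = 0.017) had nearly no room between the groups, was lost with total counts (-0.04) and had the opposite sign with limma on TPM (0.03, adjusted p = 0.79 with a pseudocount of 1). It was also lost without Control replicate 3 (adjusted p = 0.092) and without WNK463 replicate 1 (0.077) or 2 (0.076).

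*SC5D*, the lathosterol desaturase, had 34.2, 36.8 and 40.6 CPM in Control and 37.7, 35.5 and 33.9 CPM with WNK463, with overlapping groups. Its log2 fold change was -0.06 with TMM (95% interval -0.21 to 0.10) and 0.09 with total counts. *TM7SF2*, a sterol C14 reductase, had 13.7, 12.2 and 15.1 CPM in Control and 18.8, 12.9 and 16.5 CPM with WNK463. WNK463 replicate 2 lay inside the Control range, and the log2 fold change was 0.23 (95% interval -0.02 to 0.47, adjusted p = 0.11). Without that sample it was 0.36 (adjusted p = 0.011), with total counts 0.38 (adjusted p = 0.011) and with limma on log2(TPM + 1) 0.39 (adjusted p = 0.044, or 0.095 with no filter). Without WNK463 replicate 1 it was 0.10 (adjusted p = 0.53), and without Control replicate 2 it was 0.15 (adjusted p = 0.36). Along this stretch the log2 fold changes spread from -1.65 to 0.23.

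**Figure D2:**
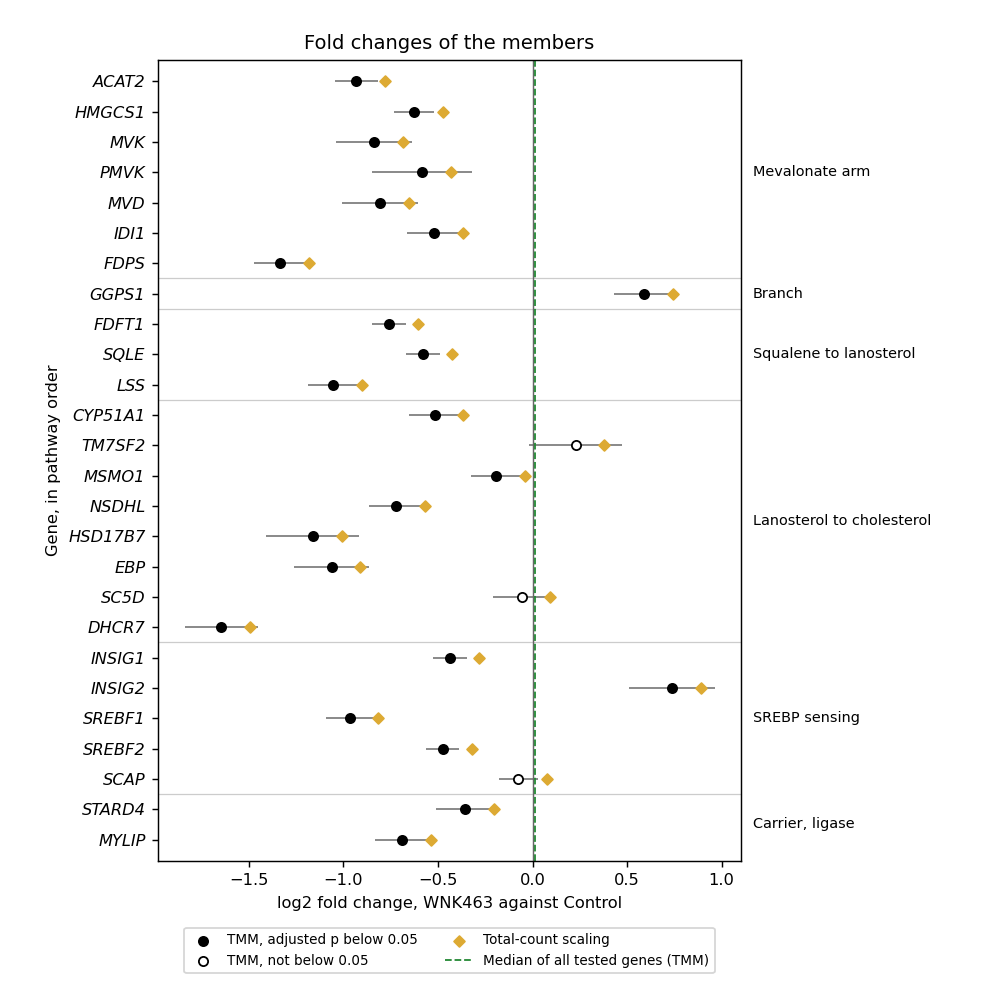
The x axis gives the log2 fold change of WNK463 against Control for each member, in pathway order on the y axis. Circles are edgeR values with TMM scaling (filled where the adjusted p was below 0.05) with 95% intervals as lines, diamonds are values with total-count scaling, and the dashed line is the median of all genes tested, 0.02. The diamonds lie about 0.15 to the right of the circles, and *MSMO1*, *SC5D* and *SCAP* are the members near 0.

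Levels between genes can be compared in TPM, which accounts for transcript length. In Control, *FDFT1* had the highest level at 381 ± 5.36 TPM, followed by *FDPS* at 280.0 ± 22.7, *INSIG1* at 243 ± 5.16, *SQLE* at 209 ± 8.84 and *SREBF2* at 189 ± 5.44 TPM (SD, n = 3 each). Each of these lay above the next in all Control samples. From *SREBF1* at 64.0 TPM down to *MVD* at 49.6 TPM, neighbours in the order overlapped. *HSD17B7* at 16.1 ± 0.192 TPM and *INSIG2* at 5.89 ± 1.06 TPM had the lowest levels (SD, n = 3 each). Summed over the 19 enzymes, the level was 1610.2, 1575 and 1609.9 TPM in Control and 1100.2, 1070.4 and 1106 TPM with WNK463. The sum with WNK463 was thus 68.3% of that in Control. By step it was 58.6% for the mevalonate arm, 173% for *GGPS1*, 70.4% from farnesyl diphosphate to lanosterol and 75.7% from lanosterol to cholesterol. TPM carry no TMM factors, so these percentages are not on the scale of those given for single genes.

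Among the genes that sense sterol, both SREBP genes fell. *SREBF2* (chr22:41833079-41907308) encodes SREBP-2, the main activator of cholesterol synthesis genes. It had 554, 536 and 515 CPM in Control and 394, 376 and 385 CPM with WNK463 (log2 fold change -0.47, standard error 0.05, adjusted p = 1.7e-09). *SREBF1*, which encodes the SREBP-1 forms that drive fatty acid synthesis, had 131, 122 and 107 CPM in Control and 61.5, 60.3 and 62.1 CPM with WNK463. This was 51.2% of Control (log2 fold change -0.97, standard error 0.07, adjusted p = 5.5e-12). Neither pair of groups overlapped. The ratio of *SREBF1* to *SREBF2*, in TPM, was 0.325, 0.348 and 0.341 in Control and 0.212, 0.242 and 0.240 with WNK463. The log2 ratio decreased by 0.55, with p = 0.10 in an exact permutation test (two-sided), a value that 3 samples per group cannot go below, and 0.10 after adjustment over 2 ratios.

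The INSIG genes moved in opposite directions. *INSIG1*, itself a classical SREBP target, had 327, 331 and 340 CPM in Control and 249.1, 235 and 254 CPM with WNK463, a fall to 74.0% of Control (log2 fold change -0.44, standard error 0.05, adjusted p = 1.1e-08). *INSIG2* (ENSG00000125629, chr2:118088452-118110997), which acts like *INSIG1* but is known to be less dependent on SREBPs, had 11.1, 9.40 and 13.4 CPM in Control and 19.4, 19.2 and 18.1 CPM with WNK463. Its level was 167% of Control (log2 fold change 0.74, standard error 0.11, adjusted p = 4.3e-06), and the groups did not overlap. *INSIG1* transcripts, in TPM, were 41.7, 49.4 and 35.3 times as abundant as *INSIG2* transcripts in Control and 16.9, 15.9 and 19.97 times with WNK463. This log2 ratio decreased by 1.25, and the exact permutation test again gave its smallest possible p, 0.10 (0.10 adjusted). *INSIG1* thus stayed the more abundant by far in every sample.

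*SCAP*, the escort of the SREBPs, had 116, 114 and 111 CPM in Control and 108, 106 and 111 CPM with WNK463. Its log2 fold change was -0.07 with TMM (95% interval -0.18 to 0.03, adjusted p = 0.20), 0.08 with total counts and 0.13 with limma on log2(TPM + 1). With limma and no filter the value of 0.13 passed the test as a rise (adjusted p = 0.039), the opposite sign to that with TMM.

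**Figure D3:**
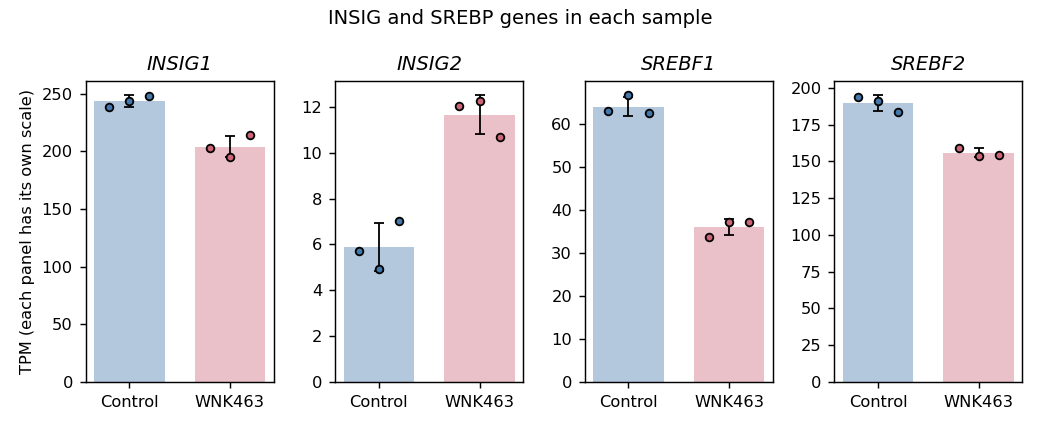
Bars show the mean TPM of *INSIG1*, *INSIG2*, *SREBF1* and *SREBF2* in Control and WNK463, error bars are SD (n = 3) and points are samples; each panel has its own y axis. *INSIG2* is the one gene of the 4 that is higher with WNK463, at a level far below *INSIG1*.

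*STARD4*, a carrier that moves sterol between membranes, had 30.7, 30.2 and 32.9 CPM in Control and 23.8, 25.4 and 24.1 CPM with WNK463 (log2 fold change -0.36, adjusted p = 3.7e-04). On the TPM scale its groups overlapped, with 18.2 to 19.3 TPM in Control and 15.5 to 19.7 TPM with WNK463, and limma on log2(TPM + 1) gave -0.10 (adjusted p = 0.36). *MYLIP* encodes IDOL, a ubiquitin ligase that is induced by LXR, the oxysterol receptor, and that lowers lipoprotein uptake. It had 47.3, 48.8 and 48.5 CPM in Control and 27.8, 33.0 and 28.9 CPM with WNK463, at 62.1% of Control (log2 fold change -0.69, standard error 0.08, adjusted p = 1.9e-08). The groups of *MYLIP* did not overlap.

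Of the 26 members, 12 share exon bases with a gene on the other strand, and whether counting used strand is not stated in the sources used here. For 4 members an overlapping gene on the other strand is in the table, and in each case it moved the same way as the member. At adjusted p below 0.05 in edgeR's test, 35.2% of all genes tested fell and 35.6% rose. *TCP1* covers 9.23% of the *ACAT2* exon bases and had a log2 fold change of -0.62. Larger parts of the *ACAT2* exon bases are shared with *SOD2-OT1* (33.9%) and the *SOD2* entry ENSG00000285441 (26.5%). Neither entry is in the table, so their changes are not known here. *RUSC1-AS1*, also outside the table, covers 18.6% of the *FDPS* exon bases. For the remaining members, each gene on the other strand that is outside the table shares a smaller part than this. *MMAB*, which is transcribed head to head with *MVK* and covers 4.72% of its exon bases, had -0.84 against -0.84 for *MVK*. *RAI1* covers 6.92% of the *SREBF1* exon bases and had -0.68. *ARID4B* covers 3.62% of the *GGPS1* exon bases and had 0.70, while a *TBCE* gene that shares 37.3% of them on the same strand had 0.04 (adjusted p = 0.88). The part of these genes in the members' values was not tested.

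The counts in gene lists next to the pathway stand beside 35.2% of all genes tested that fell and 35.6% that rose (26.1% and 46.2% with total counts), and no difference of a list from all genes was tested. A list of SREBP-1 targets held mainly genes of fatty acid synthesis and desaturation. Of its 11 tested genes, 7 fell and 2 rose, with a median log2 fold change of -0.63. The 4 that fell by 2-fold or more were *SCD* (-1.68), the stearoyl-CoA desaturase, *FADS2* (-1.64) and *FADS1* (-1.37), the desaturases of polyunsaturated fatty acids, and *FASN* (-1.33), the fatty acid synthase. *SCD* had 822, 833 and 807 CPM in Control and 268, 243 and 258 CPM with WNK463. Of 15 genes that use isoprenoids, such as prenyltransferases and the enzymes of dolichol and ubiquinone side chains, 9 fell and 3 rose, all below 2-fold. With total counts 4 of these 15 fell, and with limma on TPM 3. The share of all genes that fell with limma is not given here.

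Of 14 tested genes of sterol uptake, transport and storage, 4 fell and 5 rose (8 with total counts), with a median of 0.08. *SCARB1*, a receptor for high-density lipoprotein, had 172, 164 and 161 CPM in Control and 85.1, 73.3 and 83.1 CPM with WNK463 (log2 fold change -1.04, standard error 0.06). *NCEH1*, which hydrolyses cholesteryl ester, rose from 27.8, 32.4 and 33.6 CPM to 74.0, 68.1 and 71.8 CPM (log2 fold change 1.19, standard error 0.07). The machinery that cuts and degrades the SREBPs and their partners had 3 genes lower and 5 higher of 12 (9 higher with total counts). Of 11 tested LXR and efflux genes, 2 fell and 3 rose (5 with total counts), with a median of 0.11. One of the risers, *APOE*, had at most 2 counts in each Control sample and at least 12 with WNK463, so no fold is given.

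As a list added after the values were seen, 38 genes of the table carry the annotation cholesterol biosynthetic process, 19 of them members. Of 32 tested, 22 fell and 2 rose, with a median log2 fold change of -0.61. With total counts 20 fell and 6 rose. Without the members, 6 of 13 fell and 1 rose (5 and 4 with total counts), with a median of -0.23, beside 35.2% and 35.6% of all genes tested.

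**Figure D4:**
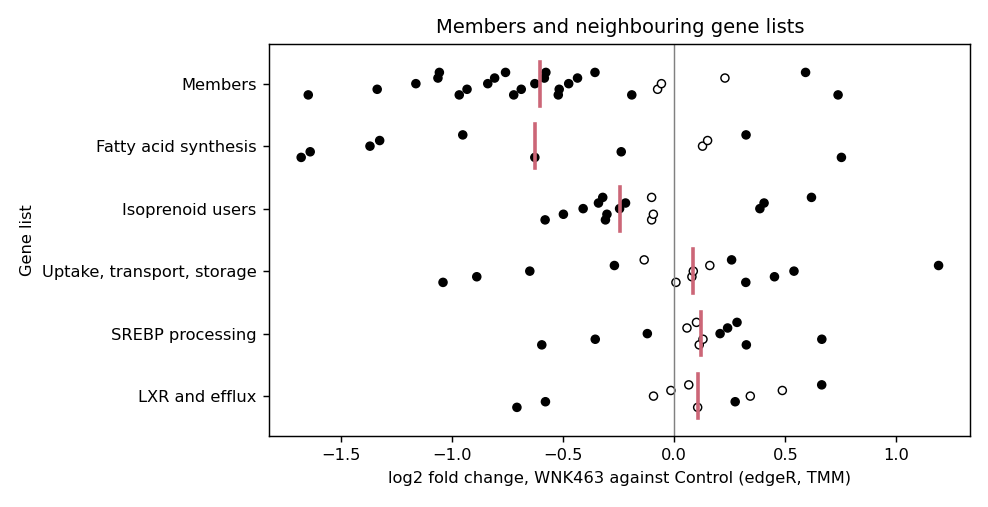
Each point is a gene, with its log2 fold change (edgeR, TMM) on the x axis and its list on the y axis, filled where the adjusted p was below 0.05; red bars are list medians, and *APOE* is not drawn. The members and the fatty acid genes lie mainly left of 0, with medians of -0.61 and -0.63, while the medians of the uptake, SREBP processing and LXR lists lie at 0.08 to 0.12.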

How the data were processed

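Expression was measured by RNA-seq of mRNA captured on beads (Illumina NovaSeq X Plus). The authors deposited whole-number counts per gene and sample, and TPM values. The deposited counts were taken to be estimated counts that the authors had rounded, because 62 zeros among them go with a nonzero TPM. The submitters' processing notes name GRCh38 and fastp, Bowtie2, HISAT2, StringTie, RSEM, DESeq2 and edgeR without roles. The authors' fold changes, p-values and group means were not used.

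Counts were tested over the whole table with edgeR 4.0.16 (TMM, default low-count filter, robust quasi-likelihood test, Benjamini-Hochberg) in R 4.3.3. CPM use TMM library sizes, and the standard error of a fold change was obtained by dividing its size on the log2 scale by the square root of F, with 95% intervals from a normal distribution. Alternatives were DESeq2 1.42.0, total-count scaling, other filters, a replicate block, limma 3.58.1 on log2(TPM + 1) or log2(TPM + 0.1), and each sample left out. The procedure was tested on simulated counts in which few genes changed, up or down at random. That setting differs from these data, where most genes passed the test, so it does not check the scaling. Replicates differed by more than sampling noise (chi-square per degree of freedom 2.64 to 7.13).

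Members and lists were chosen with earlier results of these data known. All 26 members are named, and of each other list the genes changed by 2-fold or more. A list of 3 further synthesis genes is not reported here. The annotation list was added after the values were seen. Gene positions and exon overlaps come from GENCODE 29.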

Additional observations from a re-analysis of the deposited data

How the results depend on the processing

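The number of members that fell, 21, lay between 18 and 21 under the alternatives, and the number that rose, 2, lay between 2 and 3. Of the 23 members that passed, 20 passed in the same direction under all 14 alternatives, and *MSMO1*, *PMVK* and *STARD4* did not. The number that fell by 2-fold or more was 5, against 3 with total-count scaling (*FDPS*, *HSD17B7* and *DHCR7*) and 2 with limma on log2(TPM + 1), with or without a filter, or on log2(TPM + 0.1), and it ranged from 4 to 6 with each sample left out. The log2 fold change of *MSMO1* changed sign with limma (0.0278 on log2(TPM + 1), with and without a filter, and 0.0284 on log2(TPM + 0.1)), that of *SC5D* with total counts (0.0943), and that of *SCAP* with total counts (0.0772) and limma on log2(TPM + 1) (0.13, with and without a filter, at adjusted p = 0.039 without) or log2(TPM + 0.1) (0.14). The ratios of *INSIG1* to *INSIG2* and of *SREBF1* to *SREBF2* kept their direction in every setting run. Counts per list moved by more than 1.5 times only with total counts or TPM, apart from the annotation list without members, where 1 gene higher became 2. Deviations from the group means were nearly uncorrelated between same-numbered samples (0.01, 0.03 and -0.07), so the numbers were not taken as pairs, and with the replicate block 21 members fell and 2 rose. The lowest count of a member in any sample was 89, in *HSD17B7*.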
